A study of Mus musculus with 9 samples.

Results

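The interferon regulatory factors (IRFs) and the signal transducers and activators of transcription (STATs) analysed here were 6 Irf genes (Irf1, Irf3, Irf5, Irf7, Irf8 and Irf9) and 3 Stat genes (Stat2, Stat3 and Stat6). They were taken by symbol, with earlier results of these data known, as 9 rows of a table of 55401 mouse genes. They are 9 of the 16 Irf and Stat rows of that table. All samples were wild-type RAW264.7 cells, a single macrophage line from a tumour that Abelson leukemia virus induced in a male mouse. The control received DMSO, the LPS group received DMSO and LPS (lipopolysaccharide, a bacterial wall component that activates Toll-like receptor 4), and the LPS + Ska group received LPS and skatole, an indole compound. Each group held 3 samples, numbered 5, 6 and 7. Treatment lasted 24 h according to the labels and the study's results, whereas its methods section alone gives a longer time. Levels are TPM, a share of all transcripts corrected for transcript length, so levels of different genes can be compared within a column. As TPM keeps no record of read number, the sequencing depth was unknown. A lower TPM does not tell less RNA per cell from fewer cells that express the gene.

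IRFs and STATs are the transcription factors that turn the sensing of microbes and cytokines into gene expression. In macrophages stimulated with LPS, the adaptor Ticam1 (TRIF) and the kinases Tbk1 and Ikbke activate IRF3 by phosphorylation, and the interferon-beta that follows acts back on the cells through its receptor, Ifnar1 with Ifnar2. The receptor's kinases, Jak1 and Tyk2, activate STAT2, which binds IRF9 within the complex ISGF3, and this complex induces antiviral genes and Irf7, whose product extends the interferon response. STAT3 mediates signals of the IL-6 and IL-10 families, and STAT6 those of IL-4 and IL-13, which drive M2 polarization. IRF5 is linked to inflammatory M1 programmes, and IRF8 is needed for the macrophage lineage. The question addressed was how the transcripts of these factors stood in resting cells, after LPS, and when skatole was added to LPS.

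The columns of the treated groups were tied. Replicate 5 was the average of replicates 6 and 7, within 1e-05 TPM, in all of the 17950 genes that LPS replicates 6 and 7 both listed above 0, and for LPS + Ska likewise in all 17658. This held for 10 of 16674 genes with DMSO (0.0600%). Each treated group thus holds at most 2 independent values per gene, so n = 3 counts columns there and the SD is tied to the distance between 2 values. The values below are the deposited columns. Counts of called members and of called genes in the lists that change with the 2 recovered values are given with both. All 8 macrophage markers were detected, with means over all columns between 21.5 and 7878 TPM. Their summed level lay between 11204 and 12187 TPM with DMSO, between 5827 and 6150 with LPS and between 11459 and 11651 with LPS + Ska. Most of that sum was Lyz2 (lysozyme), at 9151 ± 453, 4423 ± 204 and 10061 ± 146 TPM (SD, n = 3). Of the 8 markers 4 were called lower and 0 higher with LPS, beside 20.0% and 12.7% of all genes tested. The 4 were Lyz2 (log2 change -1.05), Mpeg1 (-2.30), Spi1 (-0.81) and Csf1r (-0.67), in the direction of Irf3, Irf5 and Irf8. In LPS + Ska compared with LPS, 5 of the 8 were below 0 and 3 above it. Of all genes tested, 3.35% were called higher and 6.14% lower in that comparison. Lyz2 (1.19) and Mpeg1 (0.78) were called higher there and Fcgr1 (-0.59) lower, the last not with median-ratio scaling, whereas Spi1 (-0.02) and Csf1r (-0.16) were not called. The part of such shifts in the members' levels was not tested. Of the 6 T and B cell markers 5 were listed at 0 in every column, as were 2 of 4 neutrophil and 3 of 6 fibroblast and epithelial markers, and the highest single value among these 16 genes was 3.07 TPM.

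Irf5 was the most abundant member in every group. In resting cells it stood at 216 ± 0.0917 TPM (mean ± SD, n = 3 here and below), followed by Stat6 at 81.8 ± 4.36, Irf3 at 58.2 ± 6.83 and Irf8 at 46.3 ± 3.46 TPM. Stat3 at 18.5 ± 1.07 TPM came next. Stat2 at 14.9 ± 2.53, Irf1 at 14.0 ± 1.07 and Irf9 at 11.1 ± 1.93 TPM were close together, and the columns of Stat2 and Irf1, and of Irf1 and Irf9, overlapped. Irf7 was lowest, at 3.35 ± 1.65 TPM. With LPS the order changed, with Irf7 next to the top at 96.1 ± 8.73 TPM behind Irf5 at 106 ± 0.934, then Stat6 at 62.7 ± 1.10 and Irf9 at 44.0 ± 2.46 TPM. Stat3 at 29.2 ± 1.59 and Irf3 at 29.1 ± 0.309 TPM overlapped, and Irf8 at 19.7 ± 2.42, Stat2 at 12.4 ± 2.40 and Irf1 at 9.14 ± 0.244 TPM followed. With LPS + Ska, Irf7 at 38.03 ± 8.27 and Irf9 at 34.5 ± 0.919 TPM overlapped behind Irf5 and Stat6, Irf3 and Stat3 overlapped, and so did Irf1 at 7.15 ± 0.897 and Stat2 at 6.38 ± 1.12 TPM, the lowest pair. The 9 members together summed to 461 to 468 TPM with DMSO, 394 to 422 with LPS and 292 to 310 with LPS + Ska.

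**Figure D1:**
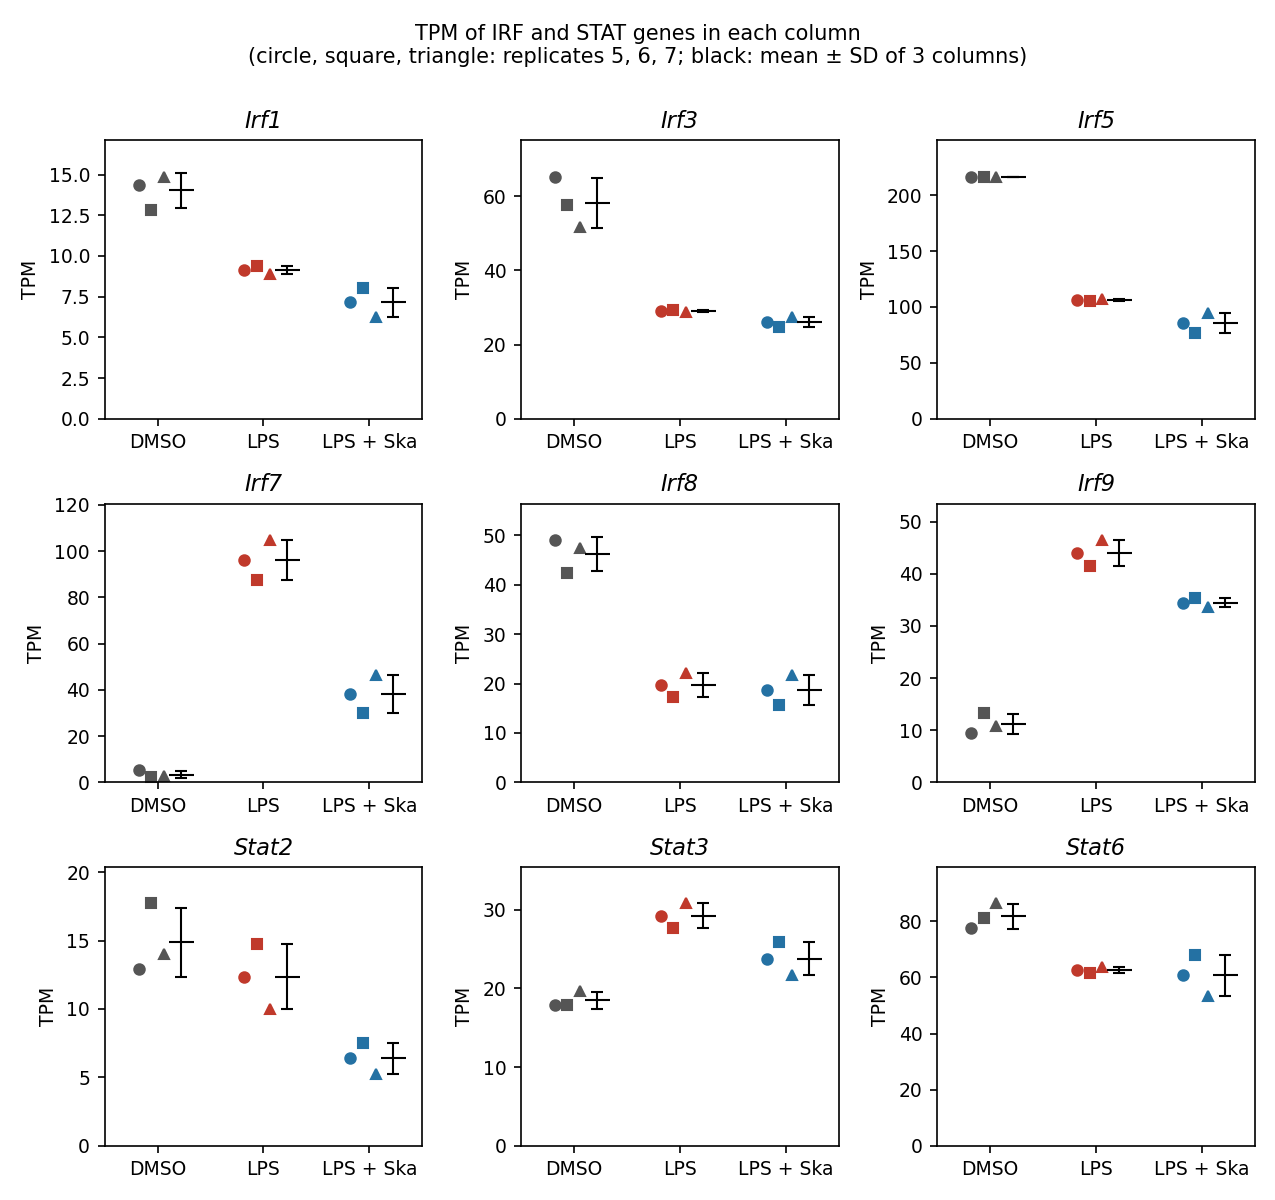
TPM of the 9 IRF and STAT genes (vertical axes from 0, one scale per gene) in the columns of DMSO, LPS and LPS + Ska, with the mean and SD of 3 columns beside the points. Irf7 stood at 3.35, 96.1 and 38.03 TPM in the 3 groups, whereas Irf5 fell from 216 to 106 and 86.0 TPM.

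LPS compared with DMSO asked how M1 activation altered the factors. LPS raised 3 members (Irf7, Irf9 and Stat3) and lowered 3 (Irf3, Irf5 and Irf8) past both limits of a call, an adjusted p below 0.05 from limma and a fold change above 1.5 or below 0.67. Among all 12819 genes tested 32.7% were called, 12.7% higher and 20.0% lower. The members were chosen with earlier results of these data known, so their share of calls is no evidence about the families. Its difference from that of all genes was not tested. The fit used log2(TPM + 1), a scale that understates fold changes of low genes such as Irf7 in DMSO.

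Irf7, the interferon-induced factor that amplifies type I interferon production, lies on chromosome 7 from 141262706 to 141266481 on the minus strand (GRCm38, as all gene positions here). Its TPM was 5.26, 2.29 and 2.51 with DMSO, 96.1, 87.4 and 105 with LPS, and 38.03, 29.8 and 46.3 with LPS + Ska, in replicates 5, 6 and 7. The 3 groups did not overlap, with LPS highest and LPS + Ska between. LPS raised Irf7 by 4.54 on the log2 scale (SE 0.24, adjusted p = 5.7e-07), and the ratio of the mean TPM was 28.6.

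Irf9, the DNA-binding subunit of ISGF3, lies on chromosome 14 from 55603571 to 55610030 on the plus strand. It stood at 9.37, 13.2 and 10.8 TPM with DMSO, 44.0, 41.6 and 46.5 with LPS and 34.5, 35.4 and 33.5 with LPS + Ska. As for Irf7, no groups overlapped and LPS + Ska lay between the others, though nearer to LPS. LPS raised Irf9 by 1.90 on the log2 scale (SE 0.11, adjusted p = 9.3e-07), a ratio of means of 3.96. Stat2, the partner of Irf9 in that complex, lies on chromosome 10 from 128270559 to 128292849 on the plus strand and showed 12.9, 17.7 and 14.0 TPM with DMSO against 12.4, 14.8 and 9.96 with LPS. These columns overlapped, and the change was -0.25 (SE 0.17, adjusted p = 0.23, 95% interval -0.64 to 0.13).

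Irf3, the constitutive factor that acts directly downstream of Tbk1 and Ikbke, lies on chromosome 7 from 44997648 to 45002848 on the plus strand. Its columns fell from 65.3, 57.5 and 51.7 TPM with DMSO to 29.1, 29.4 and 28.8 with LPS, without overlap (log2 change -0.97, SE 0.09, adjusted p = 1.4e-05). Irf5, on chromosome 6 from 29526625 to 29541871 on the plus strand, stood at 216 TPM in each DMSO column and at 106, 105 and 107 with LPS (log2 change -1.02, SE 0.07, adjusted p = 3.0e-06). Irf8, on chromosome 8 from 120736358 to 120756694 on the plus strand, stood at 49.1, 42.4 and 47.4 TPM with DMSO and at 19.7, 17.3 and 22.1 with LPS (log2 change -1.20, SE 0.13, adjusted p = 4.3e-05). With LPS these 3 factors thus stood at 49.99%, 48.9% and 42.6% of their mean DMSO levels.

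Stat3, which carries IL-6 and IL-10 signals, lies on chromosome 11 from 100885098 to 100939540 on the minus strand. It rose from 17.8, 17.9 and 19.7 TPM to 29.2, 27.6 and 30.8 with LPS (log2 change 0.63, SE 0.08, adjusted p = 1.7e-04). Irf1, an interferon-gamma-induced factor on chromosome 11 from 53770014 to 53778374 on the plus strand, showed 14.4, 12.8 and 14.9 TPM with DMSO and 9.14, 9.39 and 8.90 with LPS. Its columns did not overlap, but the change of -0.56 (SE 0.10, adjusted p = 0.0012) missed the fold limit, and it passed with a pseudocount of 0.1 (-0.61), without DMSO replicate 6 (-0.62) and without LPS replicate 6 (-0.58). Stat6, the IL-4 and IL-13 factor on chromosome 10 from 127642986 to 127660957 on the plus strand, showed 77.8, 81.2 and 86.4 TPM with DMSO and 62.7, 61.6 and 63.8 with LPS. It also missed the fold limit (log2 change -0.38, SE 0.09, adjusted p = 0.0041) although its columns did not overlap.

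LPS + Ska compared with LPS asked what skatole altered in activated cells. Irf7 and Stat2 were the 2 members called, both lower, and 0 were called higher. Of all genes tested 9.49% were called, 3.35% higher and 6.14% lower. These were 429 and 787 genes, against 362 and 640 with the recovered values. Irf7 with LPS + Ska stood at 39.6% of its LPS mean and Stat2 at 51.6%. By the adjusted p alone, without the fold limit, 6 members were lower (Irf1, Irf5, Irf7, Irf9, Stat2 and Stat3) and 0 were higher, where 19.7% of all genes were lower by that rule. With the recovered values 3 members were lower by the adjusted p (Irf5, Irf7 and Stat2), and with median-ratio scaling, which sets the median change of all genes near 0, only Irf7 and Stat2 were.

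Irf7 fell by 1.33 on the log2 scale (SE 0.24, adjusted p = 0.0037), and the adjusted p lay between 8.8e-04 and 0.018 over 17 alternative settings. With the recovered values the change was -1.32 (adjusted p = 0.017). Stat2 fell from 12.4, 14.8 and 9.96 TPM with LPS to 6.38, 7.50 and 5.26 with LPS + Ska, so that the lowest LPS column lay above the highest LPS + Ska column. The change was -0.85 (SE 0.17, adjusted p = 0.0063), with adjusted p between 0.0025 and 0.029 over the 17 alternatives. Stat2 was thus called against LPS without having been called in LPS compared with DMSO.

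The remaining members changed by less than the fold limit. Irf9 with LPS + Ska stood at 78.3% of its LPS mean (log2 change -0.34, SE 0.11, adjusted p = 0.041, range over alternatives 0.0071 to 0.13). Irf1 at 7.15, 8.05 and 6.25 TPM lay below its 3 LPS columns (-0.32, SE 0.10, adjusted p = 0.046, range 0.020 to 0.14). Irf5 at 86.0, 77.1 and 94.99 TPM also lay below them (-0.30, SE 0.07, adjusted p = 0.013, range 0.0026 to 0.10). The values of Stat3 were 23.8, 25.8 and 21.7 TPM (-0.29, SE 0.08, adjusted p = 0.032, range 0.015 to 0.11), all lower than with LPS and above DMSO.

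For Irf3, Irf8 and Stat6 no difference between LPS + Ska and LPS was detectable in these columns. Irf3 showed 26.1, 24.8 and 27.4 TPM, below its LPS columns by a small margin (log2 change -0.15, 95% interval -0.34 to 0.04, adjusted p = 0.22). Irf8 showed 18.6, 15.6 and 21.6 TPM and Stat6 showed 60.7, 68.1 and 53.3, both overlapping LPS. Their intervals ran from -0.37 to 0.20 and from -0.25 to 0.14, around changes of -0.08 (adjusted p = 0.65) and -0.05 (adjusted p = 0.68), and both changes took the opposite sign with median-ratio scaling (0.010 and 0.045). All 9 members were below 0 in this comparison, 7 of them with median-ratio scaling. The median change of all genes was -0.10, so most genes were below 0 as well.

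**Figure D2:**
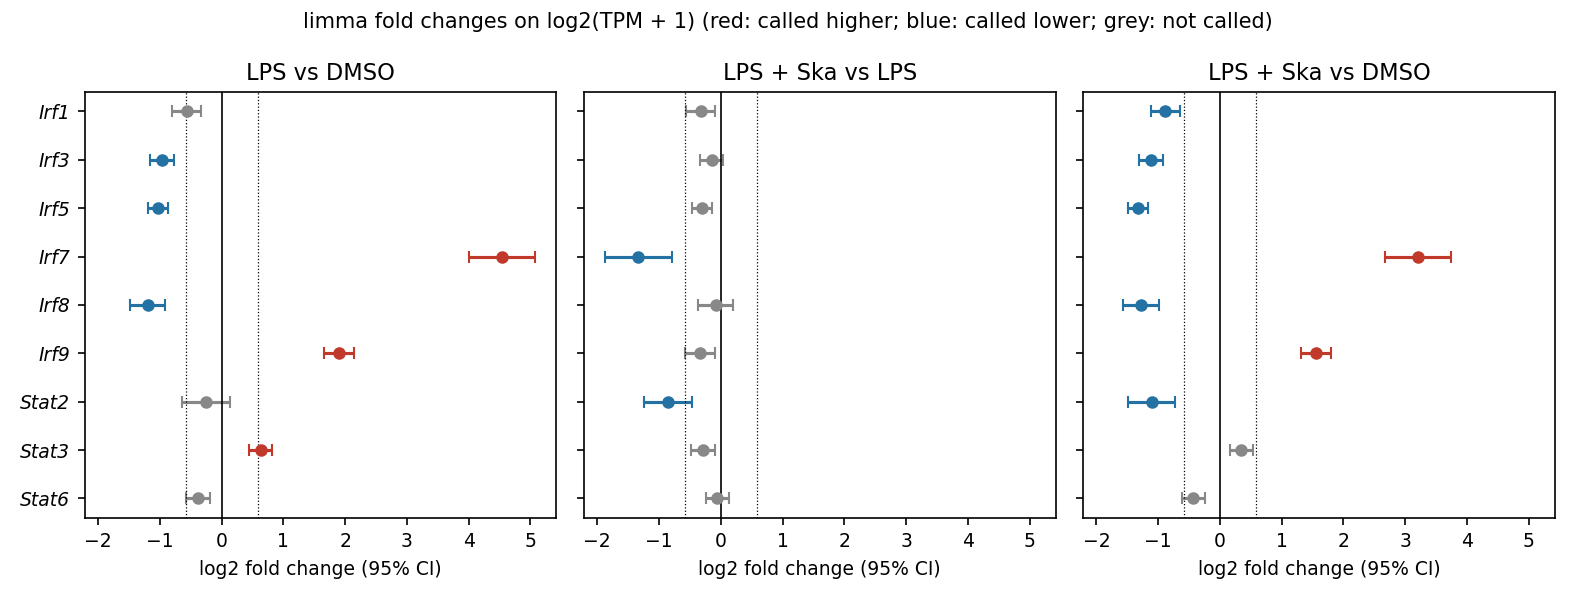
Log2 fold changes of the 9 genes with 95% confidence intervals from limma on log2(TPM + 1) in the 3 comparisons, on a common horizontal axis with dotted lines at the fold limits. Irf7 (-1.33) and Stat2 (-0.85) are the blue points in LPS + Ska vs LPS, and the intervals of Irf8 (-0.08) and Stat6 (-0.05) there include 0.

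LPS + Ska compared with DMSO shares its columns with the comparisons above, so its values stand beside theirs and are no further evidence. Here 2 members were called higher (Irf7 and Irf9) and 5 lower (Irf1, Irf3, Irf5, Irf8 and Stat2), with 36.7% of all genes called, 11.4% higher and 25.3% lower. Irf7 remained 3.21 above DMSO on the log2 scale (adjusted p = 3.9e-06), a ratio of means of 11.3, and Irf9 1.56 above it (adjusted p = 2.6e-06), a ratio of 3.10. Stat2 stood at 42.9% of its DMSO mean (log2 change -1.10, adjusted p = 3.8e-04) and Irf1 at 51.0% (-0.89, adjusted p = 6.8e-05). Irf5 (-1.33), Irf8 (-1.28) and Irf3 (-1.12) had adjusted p of 6.4e-07, 2.3e-05 and 4.7e-06. Stat3 at 0.35 (adjusted p = 0.0055) and Stat6 at -0.43 (adjusted p = 0.0017) missed the fold limit, and their columns did not overlap those of DMSO.

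The balance between the inducible Irf7 and the constitutive Irf3, both of which drive interferon genes, differed between the groups. The ratio of Irf7 TPM to Irf3 TPM was 0.0805, 0.0399 and 0.0486 with DMSO, 3.31, 2.97 and 3.64 with LPS and 1.46, 1.20 and 1.69 with LPS + Ska. Irf3 thus exceeded Irf7 in every DMSO column, and Irf7 exceeded Irf3 in every treated column. On the log2 scale, with 1 added to both TPM, the ratio was lower by 1.18 with LPS + Ska than with LPS (-1.18, exact two-sided permutation p = 0.1, the smallest that 3 against 3 columns allow). With the recovered values it was -1.17 (exact permutation p = 0.33, the smallest for 2 against 2). Within ISGF3, the ratio of Irf9 TPM to Stat2 TPM was 0.728, 0.745 and 0.769 with DMSO, 3.56, 2.81 and 4.67 with LPS and 5.40, 4.72 and 6.38 with LPS + Ska. This ratio was higher with LPS + Ska than in any LPS column, with Stat2 lower by a larger factor than Irf9.

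**Figure D3:**
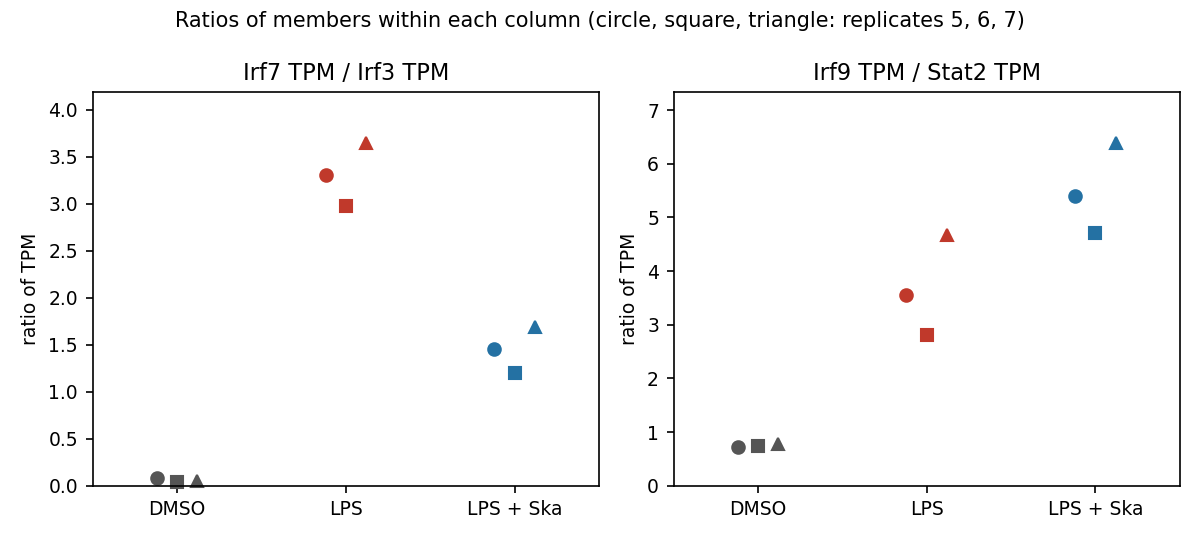
Ratios of TPM within each column, Irf7 to Irf3 (left) and Irf9 to Stat2 (right), by group, with circles, squares and triangles for replicates 5, 6 and 7 and vertical axes from 0. The Irf7 to Irf3 ratio with LPS + Ska (1.20 to 1.69) lies between DMSO and LPS, and the Irf9 to Stat2 ratio (4.72 to 6.38) lies above both.

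The promoters of 4 members are shown because these genes moved differently (Irf7 and Stat2 lower with LPS + Ska than with LPS, Irf1 and Irf8 not called there) and because they hold, or lack, the letters of the response elements that the factors themselves are known to bind. Each window runs from 250 bases before to 50 after a RefSeq start (GRCm38.p6), 5′ to 3′ on the gene's strand, and 12 windows were found for the 9 members. Capitals mark matches on either strand to GAAA followed after any 2 bases by GAAA, a short form of the interferon-stimulated response element bound by ISGF3 and IRFs, or to TTCNNNGAA, the gamma-activated site bound by STAT dimers. The windows are Stat2 at chr10:128270248-128270547 (plus), Irf1 at chr11:53769764-53770063 (plus), Irf8 at chr8:120736108-120736407 (plus) and Irf7 at chr7:141266375-141266674 (minus).
Stat2: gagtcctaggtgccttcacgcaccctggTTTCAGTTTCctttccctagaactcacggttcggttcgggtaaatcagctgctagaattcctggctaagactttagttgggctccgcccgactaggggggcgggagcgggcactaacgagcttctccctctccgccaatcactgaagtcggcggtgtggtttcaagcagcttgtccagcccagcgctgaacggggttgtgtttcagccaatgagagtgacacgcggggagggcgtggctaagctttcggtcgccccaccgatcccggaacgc
Irf1: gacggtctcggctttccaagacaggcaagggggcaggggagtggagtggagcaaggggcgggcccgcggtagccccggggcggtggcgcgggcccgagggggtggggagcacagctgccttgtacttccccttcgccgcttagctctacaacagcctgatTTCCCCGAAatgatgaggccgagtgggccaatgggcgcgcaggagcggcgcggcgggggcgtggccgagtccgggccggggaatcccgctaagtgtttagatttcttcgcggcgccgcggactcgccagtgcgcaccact
Irf8: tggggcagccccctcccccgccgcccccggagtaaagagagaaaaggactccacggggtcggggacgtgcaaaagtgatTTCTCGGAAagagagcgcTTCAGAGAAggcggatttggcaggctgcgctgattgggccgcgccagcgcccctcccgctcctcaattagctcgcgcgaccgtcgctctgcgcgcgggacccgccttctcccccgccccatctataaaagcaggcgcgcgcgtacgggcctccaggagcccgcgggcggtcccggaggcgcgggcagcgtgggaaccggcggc
Irf7: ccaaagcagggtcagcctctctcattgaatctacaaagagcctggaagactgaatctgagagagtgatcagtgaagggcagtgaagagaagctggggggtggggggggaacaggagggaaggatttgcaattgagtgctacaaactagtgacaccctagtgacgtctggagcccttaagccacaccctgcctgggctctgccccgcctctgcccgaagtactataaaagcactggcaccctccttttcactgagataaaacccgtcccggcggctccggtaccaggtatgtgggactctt
The Stat2 window held 1 match to the former, from -222 to -213 relative to the start base at 0, and was the only 1 of the 12 member windows with it, whereas 3.44% of 32851 windows in the RefSeq table hold it. The TTCNNNGAA letters were found in 2 member windows, once in that of Irf1 (from -90 to -82) and at -171 to -163 and -153 to -145 in that of Irf8, against 8.30% of all windows. Irf7 had no match to either in these 300 bases. These are matches of letters, and no binding was measured.

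The pathway around the members was described with lists of ligands, receptors, kinases, adaptors, inhibitors and targets. Interferon transcripts were scarce. Of the 9 interferon genes, 7 were listed at 0 in every column and 0 passed the filter of a mean of 1 TPM. Ifnb1, the interferon-beta gene, was listed at 0.0372 and 0.112 TPM in LPS replicates 5 and 6 and at 0 in the remaining columns. Of the 6 tested cytokines that activate STATs, LPS raised 3 (12.7% of all genes were higher), and LPS + Ska lowered 2 against LPS (6.14% of all genes). Of these 6, Csf3 (G-CSF), whose receptor activates STAT3, had a listed value of 0 in all 3 DMSO columns and reached 42.1 ± 1.00 TPM with LPS and 45.1 ± 0.629 with LPS + Ska, where its change against LPS was 0.09. One of the pair that fell was Lif, a cytokine of the IL-6 family that signals through STAT3, at 0.315 ± 0.169 TPM with DMSO, 4.99 ± 0.273 with LPS and 0.828 ± 0.1995 with LPS + Ska (log2 change -1.72, SE 0.16, adjusted p = 1.4e-04). The other was Il6 (-2.08, SE 0.16, adjusted p = 5.9e-05).

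Receptor transcripts fell with LPS. Of 11 tested, 8 were called lower in LPS compared with DMSO (20.0% of all genes, median log2 change -0.85, all genes -0.07) and 0 higher. With median-ratio scaling 6 were lower. The gp130 gene Il6st, shared by the IL-6 family, fell from 29.6 ± 1.74 to 9.55 ± 0.260 TPM (-1.54, SE 0.11, adjusted p = 3.1e-06), and Il10ra, the ligand-binding IL-10 receptor chain, from 21.5 ± 1.97 to 7.55 ± 0.0652 (-1.39, SE 0.09, adjusted p = 1.7e-06). The interferon receptor genes Ifnar1 (-0.63, adjusted p = 1.2e-04) and Ifnar2 (-1.01, adjusted p = 2.8e-06) fell as well. Ifnar1 and Ifnar2 differed from LPS in LPS + Ska by 0.03 (95% interval -0.15 to 0.21) and 0.01 (-0.15 to 0.16). The only receptor called there was Il13ra1, a chain of the receptor through which IL-4 and IL-13 activate STAT6, which went from 16.7 ± 0.919 to 10.8 ± 0.169 TPM (-0.58, SE 0.08, adjusted p = 8.7e-04), and it was not called with median-ratio scaling.

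Of the 6 kinases, Jak2 was called higher with LPS (13.0 ± 0.346 to 20.8 ± 0.239 TPM, log2 change 0.64, adjusted p = 2.0e-04) and Tyk2, a kinase of the interferon receptor, lower (32.9 ± 2.56 to 18.3 ± 0.103 TPM, -0.81, adjusted p = 4.6e-05). These 2 of 6 stand beside 32.7% of all genes called. None of the 6 was called by limma in LPS + Ska compared with LPS (9.49% of all genes). At an unadjusted p below 0.05, 3 were lower and 0 higher, but no share of all genes is given for that limit. In that comparison the values were -0.28 for Tyk2 (adjusted p = 0.041) and -0.43 for Jak3 (adjusted p = 0.11). The changes of the IRF3 kinases Tbk1 and Ikbke were -0.12 (95% interval -0.29 to 0.05) and -0.02 (-0.22 to 0.18). Of the 17 sensors and adaptors upstream of IRFs, 1 rose and 2 fell against LPS, beside 3.35% and 6.14% of all genes. The RNA sensors Ifih1 (MDA5; 1.85 ± 0.240, 27.9 ± 0.293 and 10.2 ± 0.499 TPM) and Ddx58 (RIG-I; 4.46 ± 1.23, 86.0 ± 1.61 and 33.1 ± 0.134 TPM), both interferon-induced, fell by 1.36 and 1.35 on the log2 scale (adjusted p = 2.8e-05 and 2.5e-04). Ly96 (MD-2), the chain of the LPS receptor that binds LPS, rose from 35.4 ± 6.98 to 60.5 ± 8.32 TPM (0.77, SE 0.20, adjusted p = 0.021), and it was not called with the recovered values. Of the 10 tested inhibitors 1 was called, a share near the 9.49% of all genes. It was Usp18, which restrains signalling at the interferon receptor and fell from 99.6 ± 1.58 to 38.3 ± 2.92 TPM (-1.36, SE 0.30, adjusted p = 0.010).

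Of 21 tested genes with IRF or ISGF3 elements as known targets, LPS raised 20 and lowered 0 (median log2 change 2.93, 12.7% of all genes higher), and LPS + Ska lowered 19 and raised 0 against LPS (6.14% of all genes lower, median -1.43, all genes -0.10). With the recovered values, and also with median-ratio scaling, 18 of the 21 were lower. This list holds interferon-response genes already known to be lower in these columns, so its count is not independent evidence. The largest changes against LPS were those of Ifit1 (-2.26), Mx2 (-2.20), Cmpk2 (-2.16) and Oasl2 (-2.15), each with adjusted p of at most 5.4e-04. Mx2, an antiviral GTPase, stood at 0.162 ± 0.165 TPM with DMSO, 21.2 ± 1.57 with LPS and 3.83 ± 0.0495 with LPS + Ska. Against DMSO 15 of the 21 were still higher and 0 lower (median 1.04), as Irf7 and Irf9 were.

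The remaining target lists gave fewer calls, beside 3.35% of all genes higher and 6.14% lower. Of 7 tested genes typical of interferon-gamma responses, 3 fell in LPS + Ska compared with LPS and 0 rose by limma (median -0.24), with 0 higher at an unadjusted p below 0.05. They were the immunity GTPases Irgm1 (74.9 ± 2.75 to 34.2 ± 1.32 TPM, -1.11, adjusted p = 1.6e-05) and Igtp (-0.92, adjusted p = 0.025), and the peptide transporter Tap1 (-0.75, adjusted p = 0.0012), and with the recovered values Igtp was not called. Of 9 STAT3 targets 1 rose, the stress gene Gadd45g (25.6 ± 2.48, 1.42 ± 0.737 and 5.57 ± 0.318 TPM in DMSO, LPS and LPS + Ska, 1.49 against LPS, adjusted p = 9.7e-04). In that list 1 fell, the kinase gene Pim1 (-0.68, adjusted p = 0.031), which was not called with the recovered values or with median-ratio scaling. Of the 13 STAT6 targets, genes typical of M2 macrophages, 3 passed the filter, and all 3 fell with LPS (median -2.45). Against LPS none was called by limma in LPS + Ska, nor had any an unadjusted p below 0.05 (0 of 3), and Tgm2 changed by 0.42 (SE 0.21, adjusted p = 0.17) and Clec10a by 0.35 (SE 0.24, adjusted p = 0.31).

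**Figure D4:**
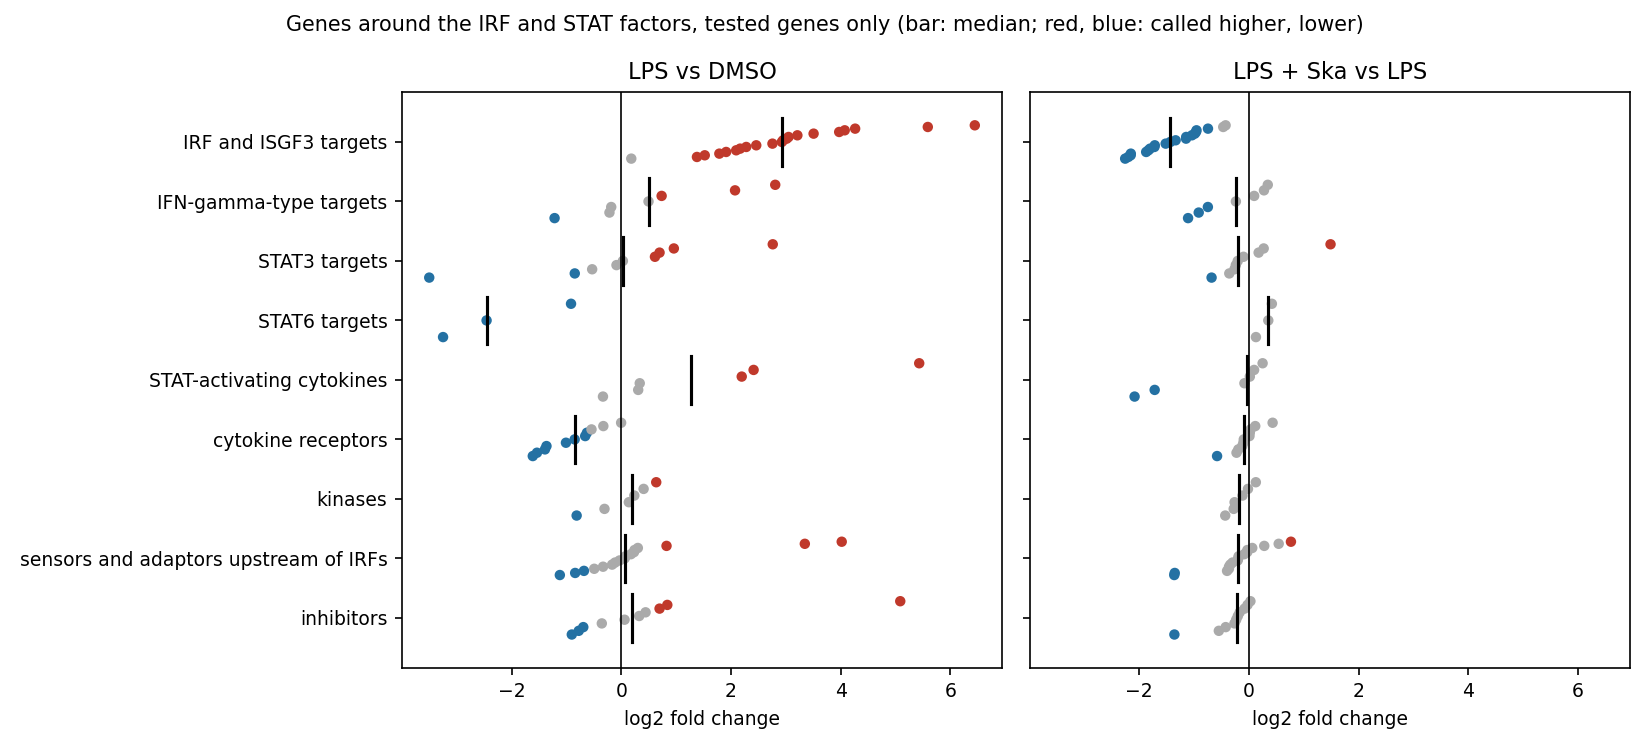
Log2 fold changes of the tested genes of each list (points, red called higher, blue called lower, grey not called) with the median of the list as a black bar, in LPS vs DMSO (left) and LPS + Ska vs LPS (right), from limma on log2(TPM + 1). The 21 IRF and ISGF3 targets lie to the left of 0 in LPS + Ska vs LPS (median -1.43), whereas the kinases (median -0.19) lie near 0.

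Other genes of the 2 families gave smaller or lower-abundance values. Irf2, which represses IRF1 targets, stood at 53.9 ± 3.12, 45.3 ± 0.503 and 34.8 ± 4.80 TPM and was called lower in LPS + Ska compared with DMSO (-0.63). Irf4, an M2-associated factor, was lower in LPS + Ska than in LPS (-0.66) at levels of 1.59 ± 0.308, 2.28 ± 0.201 and 1.09 ± 0.286 TPM. Stat5a, at 18.7 ± 1.86, 14.7 ± 0.220 and 12.04 ± 0.0287 TPM, was called lower in LPS + Ska compared with DMSO (-0.59), and Stat5b was called in none of the comparisons. Stat4 was listed at 0 in every column.

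The genes most like each called member were ranked by Pearson's r of log2(TPM + 1) over the 9 columns, of which 6 are tied, so the values are a description. The pattern of Irf7 was closest to that of Casp4 (r = 0.992), an inflammatory caspase that senses cytosolic LPS, followed by Gm17241 and Ranbp3l (both 0.992). For Irf9 they were Vegfc (0.995), Arhgef3 (0.994) and Lgals9 (0.994). For Stat2 they were the uncharacterized genes Gm12070 and Gm7336 (both 0.995) and Gm43549 (0.983). Pearson's r takes no account of the size of a change. In LPS + Ska compared with LPS, Casp4 (-0.33), Gm17241 (-0.40) and Ranbp3l (-0.54) were not called, beside -1.33 for Irf7. In the same comparison Gm12070 (-0.13) and Gm7336 (-0.08) were not called and Gm43549 (-0.61) was called lower, beside -0.85 for Stat2. For Irf3 they were Cc2d1b, Acss2 and Chtf18 (all 0.997), and for Irf5 Mycn (0.998), Cops7a (0.998) and H2afx (0.997). Irf8 was closest to Klhdc3, Actr8 and Gpr108 (all 0.995), Irf1 to Inpp5d and Abca3 (both 0.996) and Vps33a (0.995), and Stat3 to Aftph (0.996), Hivep2 and Osbpl9 (both 0.993).

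The counting of some members can take in reads of neighbours, because the use of strand in the deposited table is not stated. Gene bodies of the opposite strand share 1065 bases with Irf3 (Bcl2l12), 1045 with Irf5 (Tnpo3), 907 with Irf1 (Gm17334), 72 with Stat3 (Stat5a), 45 with Irf7 (Phrf1) and 40 with Stat6 (Nab2). On the same strand, Gm20388 covers all 20337 bases of the Irf8 gene, and Rnf31 shares 123 with Irf9. The table does not show how reads in shared bases were assigned. Stat2 had no overlapping gene in the annotation.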

How the data were processed

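RNA from RAW264.7 cells was sequenced in 9 samples, 3 per group. The authors deposited TPM for 55401 Ensembl genes, of which 55141 matched a symbol. The submitters' processing notes name fastp 0.20.1, HISAT2 2.2.1, StringTie 2.0 and mm10, with no role given. The annotation release and the use of strand are not given in the sources used here. TPM keeps no depth, so no counting error could be stated. Values below a mean of 1 TPM over the 9 columns were left out of tests, and log2(TPM + 1) of the remaining 12819 genes was fitted over all 9 columns together with limma 3.58.1 (R 4.3.3), using lmFit and a trended eBayes. A call needed a p below 0.05 after Benjamini-Hochberg adjustment and, as in the study, a fold above 1.5 or under 0.67. Nothing in the labels shows separate cultures, so p-values measure the spread between columns, which may be technical. The LPS and LPS + Ska columns are tied, and replicate 5 plus or minus 0.5 times the difference gave 2 recovered values per group as an alternative. In simulated data for LPS + Ska vs LPS, 200 of 12819 genes were changed by 1.5 (log2). Calls by both limits recovered 86.5% of them from independent and 82.9% from tied columns. Of the unchanged genes, 0.0792% and 0.312% had an adjusted p below 0.05, counted without the fold limit.

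The members and lists were chosen with earlier results of these data known. Named genes were the 9 members, up to 4 called genes per list with the largest change in LPS + Ska vs LPS (up to 2 measured genes where none was called), ligands, receptors and kinases of the interferon pathway, and the 3 genes most like each called member. Irf2, Irf4, Stat4, Stat5a, Stat5b, Csf3, Spi1 and Csf1r, and the receptor and kinase genes of the IL-6 and IL-10 families, were named outside that rule after their values were seen. Alternatives also covered the pseudocount (0.1), the filter (absent, or a mean of at least 5 TPM), median-ratio scaling, a fit to the compared groups alone, an untrended fit, a replicate block, and leaving out each column. Deviations of same-numbered columns from group means correlated by 0.38, 0.15 and 0.13 between LPS and LPS + Ska and by -0.032 to 0.080 in the other 6 pairs. Tied columns make the 3 former values dependent, so replicate numbers were treated as names only. Gene positions came from GENCODE M21 (GRCm38) and promoters from RefSeq (GRCm38.p6). Figures used matplotlib 3.10.9 in Python 3.11.15.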

Additional observations from a re-analysis of the deposited data

How the results depend on the processing

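Of the values of single members under alternatives, 452 kept direction and side of the limits, 3 passed the limits newly and 4 changed sign. The latter were Irf8 and Stat6 in LPS + Ska vs LPS, neither called, at 0.010 and 0.045 with median-ratio scaling and from -0.19 to 0.031 and -0.14 to 0.035 with 1 column left out, above 0 without LPS + Ska replicate 6 (Irf8) and replicate 7 (Stat6). The newly called values were those of Irf1 in LPS vs DMSO, given above. By the adjusted p alone, 6 members were called in LPS + Ska vs LPS instead of 2, and 7734, 3663 and 8116 of all genes in LPS vs DMSO, LPS + Ska vs LPS and LPS + Ska vs DMSO, instead of 4189, 1216 and 4700, since a fold limit is left out. Median-ratio scaling moved the median of all genes in LPS + Ska vs DMSO from -0.18 to -0.01 and the higher and lower calls in LPS + Ska vs LPS from 429 and 787 to 588 and 543, and in LPS + Ska vs DMSO from 1457 and 3243 to 2153 and 2295. With the replicate block the calls of the members were the same (6, 2 and 7), 1198 genes were called in LPS + Ska vs LPS, and the Irf7 to Irf3 ratio was -1.18 with an exact permutation p of 0.25, the smallest that 3 pairs allow. Of the members lower in LPS + Ska vs LPS by the adjusted p, 3 were so with the block and between 2 and 6 with 1 column left out, 2 without LPS replicate 5. The cause was not tested. Depth limits could not be set from TPM.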
